A study of Mus musculus with 4 samples.

Results

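Chromatin accessibility was described at 10 mouse genes that govern cartilage and bone formation: the SOX factors Sox5, Sox6 and Sox9, the RUNX factors Runx1, Runx2 and Runx3, the zinc finger factor Sp7, the secreted signal Ihh, the matrix protein Comp and the hormone receptor Pth1r. They were chosen by name, and all 10 have an entry in RefSeq for GRCm38.p6, the assembly behind mm10. An accessible region was taken as theirs when it overlapped the gene or its flanks of 100 kb on either side. This gave 233 of the 90239 regions of the series. The data are bulk ATAC-seq, an assay that marks open chromatin by where a transposase can insert adapters, of the line iMGT-Myh6-eGFP-MEF, mouse embryonic fibroblasts in which doxycycline turns on Mef2c, Gata4 and Tbx5 (MGT). Compared were siChst7 (2 libraries), cells transfected with an siRNA against the chondroitin sulfotransferase gene Chst7, and siControl (2 libraries), cells given a control siRNA. Both groups received MGT induction with 1 μg/mL doxycycline and were taken at day 1, so no library without MGT stands beside them. The labels name 1 line and call the replicates biological without saying whether they were separate cultures, and knockdown of Chst7 was not measured here.

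In the growing skeleton, Sox9 commits mesenchymal cells to cartilage, and Sox5 and Sox6 act with it on the genes of cartilage matrix. Runx2 and, downstream of it, Sp7 drive osteoblast formation, and Ihh from maturing chondrocytes signals in a loop with parathyroid hormone-related protein, which acts through Pth1r. Runx1 is best known from blood stem cells and Runx3 from T cells and sensory neurons, and mouse Runx genes are known to use a distal and a proximal promoter. Chondroitin sulfate, the chain that Chst7 helps to sulfate, is abundant on the proteoglycans of cartilage.

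The listed peaks numbered 74402 and 66165 in siChst7 replicates 1 and 2, and 73902 and 75696 in siControl replicates 1 and 2. Read totals are unknown from these files. Every value below is the authors' own value for a peak: the fold enrichment of its summit over the local background of that library, and −log10 q, a measure of how surely it was called. With 2 libraries in each group an exact permutation test cannot give a two-sided p below 0.333, so the groups are described and no p is given. Over all 55924 regions called in every library the median fold was 9.18 and 8.96 in siChst7, against 9.44 and 9.59 in siControl, so the median itself was slightly lower in both siChst7 libraries. Of the fibroblast markers examined, 8 of 12 had an end peak, meaning one no more than 1 kb from either end of the gene, in all 4 libraries. Among them were Col1a1, Col1a2, Thy1, Twist1 and Vim, while Col3a1, Lum and Pdgfra had none in any library and Dcn had one in both siControl libraries alone (folds of 5.03 and 5.59). The share over 21887 protein-coding genes was 53.8%. Of 6 blood and immune markers 1 did (Spi1). Itgam had one in both siControl libraries, Cd3e in siChst7 replicate 1, and Ptprc, Cd79a and Gata1 in none.

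The start sites of the RUNX genes carry the clearest sequence feature of the set. RefSeq promoter windows of GRCm38.p6, each running from 250 bases before to 50 after a listed start, were at hand for 7 of the 10 genes, 16 windows in all. Sox9, Sp7 and Comp have no entry. Windows of Runx1 (its outer start), Runx2 and Runx3 (its outer start) are shown because they share 1 unbroken run of 18 bases. The run holds the RUNX motif TGTGGT on the reverse strand in 2 places, while the peak calls over these windows differ. The inner start of Runx1 is shown beside them, as it lies under the widest accessible region over a start of the set. Capitals mark each match to TGTGGT or its reverse complement ACCACA, and each window reads in the direction of its gene.
Runx1 outer start, chr16:92826025-92826324, minus strand: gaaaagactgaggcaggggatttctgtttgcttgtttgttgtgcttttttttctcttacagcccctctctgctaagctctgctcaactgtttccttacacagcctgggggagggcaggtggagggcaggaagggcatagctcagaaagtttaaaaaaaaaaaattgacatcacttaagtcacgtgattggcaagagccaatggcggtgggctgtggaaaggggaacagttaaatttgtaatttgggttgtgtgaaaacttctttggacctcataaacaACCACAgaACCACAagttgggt
Runx2 start, chr17:44814578-44814877, minus strand: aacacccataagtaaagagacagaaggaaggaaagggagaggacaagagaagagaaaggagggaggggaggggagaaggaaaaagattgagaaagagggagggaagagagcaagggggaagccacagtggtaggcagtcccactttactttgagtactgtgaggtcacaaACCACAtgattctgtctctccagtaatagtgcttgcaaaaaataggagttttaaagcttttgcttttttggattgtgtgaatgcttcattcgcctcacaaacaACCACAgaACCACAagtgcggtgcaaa
Runx3 outer start, chr4:135120395-135120694, plus strand: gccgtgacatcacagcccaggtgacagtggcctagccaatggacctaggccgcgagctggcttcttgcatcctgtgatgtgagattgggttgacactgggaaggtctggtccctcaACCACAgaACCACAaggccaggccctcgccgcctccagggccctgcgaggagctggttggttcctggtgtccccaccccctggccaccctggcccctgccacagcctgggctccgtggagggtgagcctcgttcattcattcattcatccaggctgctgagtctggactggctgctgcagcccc
Runx1 inner start, chr16:92697280-92697579, minus strand: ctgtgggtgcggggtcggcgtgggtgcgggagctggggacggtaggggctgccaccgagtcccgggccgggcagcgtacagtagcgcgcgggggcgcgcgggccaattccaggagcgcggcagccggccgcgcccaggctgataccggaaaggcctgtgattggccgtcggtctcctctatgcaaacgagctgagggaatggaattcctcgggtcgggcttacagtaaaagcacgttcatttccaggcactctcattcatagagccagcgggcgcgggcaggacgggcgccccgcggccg
The shared run, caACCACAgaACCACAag, begins 26 bases after the outer start of Runx1, 21 bases after the start of Runx2 and 136 bases before the outer start of Runx3 (position -136). Of 32851 promoter windows of the genome 4 held it, these 3 and that of Gm16225, a non-coding RNA gene whose window overlaps that of Runx3. Since the run holds 2 matches to TGTGGT, each of these 3 windows has at least 2 by the way it was chosen. Of the 16 windows of the set, 3 have at least 2 matches on either strand, where the share over all windows is 1.81%. The inner starts of Runx1 and Runx3 held none.

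The number of libraries with a peak over these starts differed. A peak overlapped the outer Runx1 window in all 4 libraries, the Runx2 window in 3 and the outer Runx3 window in none, and the shared run lies in all 3 windows. The folds ran the other way, from 6.75 to 7.93 where the Runx2 region was called, against 3.40 to 4.63 at the outer Runx1 start. The run itself was under a peak in 4 libraries at Runx1 and in 0 at Runx2 and Runx3, since the Runx2 region ended short of it. Over all genes, 36.0% of promoter windows were overlapped in all 4 libraries. Among the 16 windows of the set it was 2, both of Runx1, with 1 more (Runx2) overlapped in 3 libraries and 13 in no library. The 13 include all 6 windows of Sox6, so they are not 13 genes. The other motifs searched on both strands were ACAATG and ACAAAG for SOX factors, GGGCGG for Sp factors, TGANTCA for AP-1 and AGATAA for GATA factors. A SOX match of either kind stood in 7 of the 16 windows, against 28.6% of all windows, and GGGCGG in 5, against 35.7%. Apart from a Sox5 and a Pth1r window, the 7 with a SOX match are all starts of Sox6. That gene has 6 of the 16 windows, so the share of 7 in 16 mostly describes Sox6. AP-1 letters stood in none (7.81% of all windows) and GATA letters in 1, a Sox6 window (11.2% of all). A match is a description of letters and says nothing of binding.

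At Runx1 most regions were shared by the libraries. Its 34 regions in a window of 425 kb included 24 called in all 4 libraries, and 22 lay inside the gene. The region over the inner start, chr16:92696619-92698902, was 2284 bp wide, and 0.159% of all regions called in all 4 libraries are as wide or wider (median 681 bp). Its fold enrichment was 8.51 and 9.61 in siChst7, against 8.73 and 8.98 in siControl, and its −log10 q was 169, 159, 178 and 178 in the same order. The siChst7 values enclosed those of siControl. The region over the outer start, chr16:92825905-92826208, was 304 bp wide and weaker, with a fold of 4.63 and 3.40 in siChst7, against 3.77 and 4.05 in siControl. Here too the siControl values lay between those of siChst7. A further region 1724 bp outside that start, chr16:92827798-92828727, had folds of 6.71 and 7.41 in siChst7, against 7.79 and 7.5 in siControl. Both siChst7 values were lower by a small margin, and the ranks of the region among all shared regions overlapped. The strongest region inside Runx1, chr16:92653929-92655151, lay in the gene's body, 52463 bp from its nearer end. It gave 14.1 and 13.1 in siChst7, against 15.3 and 15.4 in siControl, again with both siChst7 values below.

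At Runx2, the osteoblast regulator, 21 of 34 regions were called in all 4 libraries and 28 lay inside the gene, of which 3 also lie in Supt3, a subunit gene of a transcription coactivator complex that overlaps the Runx2 start. Only 1 start of Runx2 is listed, so any other was not examined. The region over the listed start, chr17:44814625-44815188, was one of those 3. It had a fold of 7.93 in siChst7 replicate 1 and no peak in siChst7 replicate 2, against 7.20 and 6.75 in siControl. The siChst7 library that called it had the highest of the 3 values. The strongest region inside the gene, chr17:44500211-44501041, lies 4224 bp from the end opposite the start. Its folds were 17.5 and 17.8 in siChst7, against 19.5 and 18.7 in siControl, which put it above 95.9% to 97.8% of shared regions, depending on the library. A similar region stood 39884 bp beyond that end, chr17:44455598-44456103, with 14.3 and 18.02 in siChst7, against 19.2 and 18.6 in siControl. In both regions the siControl folds were higher, while the ranks among all shared regions overlapped.

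Runx3 differed from its paralogs in where its regions lay. Of 27 regions in its window 2 were inside the gene, both called in all 4 libraries, and 25 lay in the flanks, 8 of them within the chloride channel gene Clic4. No listed start of Runx3 was overlapped. The region nearest to the inner start, chr4:135152862-135154053, began 317 bp after it and was weak, with folds of 4.56 and 5.16 in siChst7, against 5.02 and 5.02 in siControl. The groups overlapped. From the outer start, the nearest region was 12995 bp away and was called in siChst7 replicate 2 alone. The second region inside the gene, chr4:135158628-135159354, had 7.40 and 8.65 in siChst7, against 6.50 and 7.23 in siControl, with both siChst7 values above.

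**Figure D1:**
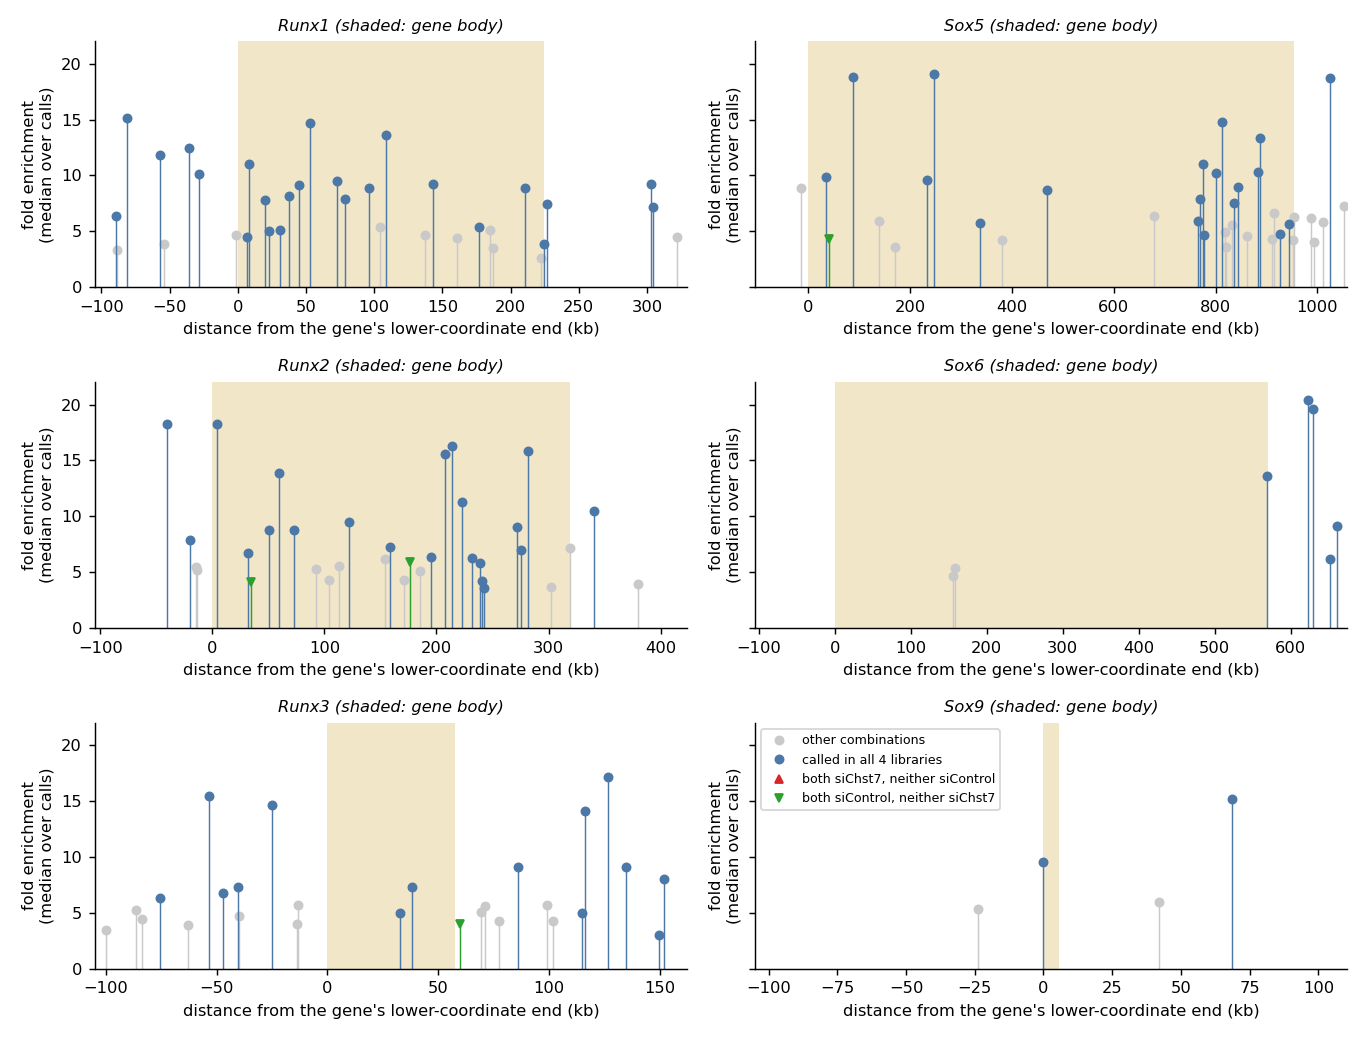
Regions across 3 RUNX and 3 SOX genes. The horizontal axis is the distance in kb from the lower-coordinate end of each gene (shaded body) with 100 kb on each side, and the vertical axis is the median fold enrichment over the libraries that called the region. Runx1 and Runx2 hold regions through the body, Runx3 has 2 inside, Sox6 is nearly empty, and no siChst7-specific region lies at these 6 genes.

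Among the SOX genes, Sox9, the regulator of cartilage fate, had an accessible start within an otherwise sparse window. In 206 kb 4 regions were found, or 1.95 per 100 kb, against a median of 6.21 over the windows of all protein-coding genes. The one over a gene end, chr11:112781315-112783054, was 1740 bp wide, a width reached by 1.32% of regions called in all 4 libraries. Its folds were 9.73 and 8.34 in siChst7, against 9.36 and 10.3 in siControl, and the groups overlapped. The strongest, chr11:112850043-112851134, lay 62286 bp beyond the gene with no other protein-coding gene in the window. It had 15.0 and 14.3 in siChst7, against 18.2 and 15.4 in siControl, both siChst7 folds being lower and the ranks overlapping. The other 2 regions were weak calls in 3 libraries and in 1 library. Sox9 is known for enhancers far beyond 100 kb, which this window does not hold.

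Sox5, which encodes a SOX protein without a transactivation domain, spans 954 kb and held 37 regions, 31 of them inside the gene and 19 called in all 4 libraries. They were unevenly spread. The 200 kb at the upper end of the gene, the 5′ end since its listed transcript lies on the minus strand, contained 20 of the 31 inside regions, 12 of them called in all 4 libraries. The single RefSeq promoter window of Sox5 lies deep inside the gene and had no peak. At the upper gene end a region 288 bp inside, chr6:144781659-144781999, had folds of 6.28 and 5.71 in siChst7, against 8.91 and no call in siControl. That end was therefore called in 3 libraries. The strongest Sox5 region, chr6:144074724-144075560, had 19.5 and 18.1 in siChst7, against 18.6 and 23.0 in siControl, with the siChst7 values inside or just below that range. Of the 37 regions 11 were called in 1 library alone.

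Sox6, the close relative of Sox5, was nearly without regions. Its 570 kb held 3, or 0.526 per 100 kb of gene, and a single one was called in all 4 libraries. That region, chr7:116039937-116040600, lies 176 bp inside the upper end and 1193 bp upstream of the outermost of 6 listed starts, none of which was overlapped by a peak. Its folds were 13.7 and 14.5 in siChst7, against 13.5 and 13.6 in siControl, so the siChst7 values were higher by less than their own difference. The other 4 regions of the Sox6 window belong to the neighbours 1110004F10Rik and Plekha7 by position. For the density of regions, 14.9% of protein-coding gene windows lay below Sox6, 20.5% below Sox9 and 27.7% below Sox5. For the RUNX genes it was 53.1% below Runx2, 64.9% below Runx1 and 82.0% below Runx3. The other members had 71.5% below Pth1r, 77.1% below Ihh, 89.2% below Sp7 and 89.6% below Comp. In those 4 windows most regions lay nearer to another protein-coding gene. They were 15 of 20 at Pth1r, 18 of 20 at Ihh, 22 of 25 at Sp7 and 22 of 25 at Comp. Over all members it was 100 of 233, so the density of a window also describes the neighbours of its gene.

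**Figure D2:**
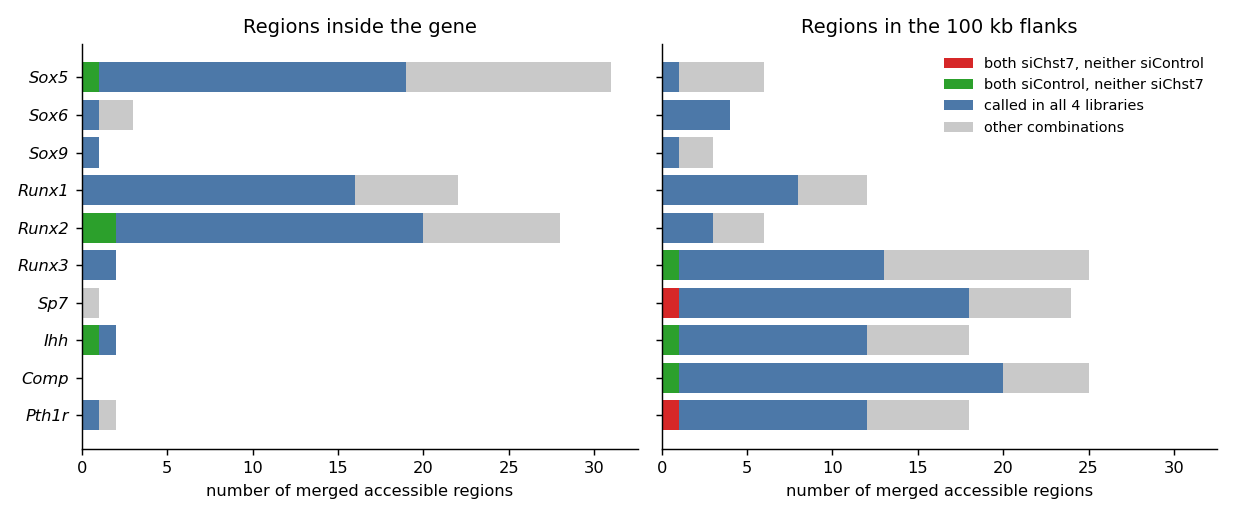
Number of merged accessible regions per gene, inside the gene (left panel) and in its 100 kb flanks (right panel), split by the libraries that called them. Sox5, Runx1 and Runx2 hold most regions inside the gene (31, 22 and 28), while Comp has 0 inside and 25 in its flanks.

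Genes of the later cartilage and bone programme are short, and few regions lay inside them. Sp7, Ihh, Comp and Pth1r span 10.4, 6.36, 8.52 and 25.1 kb. Their 1, 2, 0 and 2 inside regions came to 9.58, 31.5, 0 and 7.98 per 100 kb of gene, values that rest on few calls. The same measure was 9.79 at Runx1 (22 regions), 8.78 at Runx2 (28) and 3.49 at Runx3 (2). It was 3.25 at Sox5 (31 regions), 0.526 at Sox6 (3) and 18.0 at Sox9 (1). Sp7, the osteoblast factor also called osterix, had a single region inside, chr15:102358862-102359103, with a fold of 7.27 in siChst7 replicate 2 and no call in siChst7 replicate 1, against 4.30 in siControl replicate 1 and no call in siControl replicate 2. Each group called it once. In all, 22 of its 25 regions lay nearer to another of the 9 protein-coding genes of the window, such as Aaas, Pfdn5 and Sp1. The nearest region called in all 4 libraries lay 5503 bp away in Aaas, chr15:102350313-102351100, with 12.96 and 12.5 in siChst7, against 12.50 and 13.5 in siControl. On the other side, chr15:102376715-102378234 was nearest to Sp7 itself, 9680 bp away, with 6.48 and 7.62 in siChst7, against 7.21 and 7.65 in siControl. The groups overlapped in both.

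At Ihh, the hedgehog ligand of growth plate cartilage, the region inside the gene that all 4 libraries called, chr1:74948608-74949416, had folds of 7.51 and 8.97 in siChst7, against 6.80 and 8.68 in siControl. The groups overlapped. The Ihh promoter window had no peak in any library. The strongest region of the window, chr1:75040116-75040956, lay in Nhej1, a DNA repair gene whose introns are known to hold Ihh enhancers in mouse. Its folds were 15.8 and 15.9 in siChst7, against 17.1 and 16.0 in siControl, a little lower in both siChst7 libraries, with overlapping ranks. Of 8 regions that overlapped Nhej1, 6 were called in all 4 libraries.

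Pth1r, the receptor for parathyroid hormone and its related protein, had no peak over any of its 3 listed starts. Inside the gene, chr9:110732370-110733200 was called in all 4 libraries, 10285 bp from the nearer gene end, with 9.27 and 9.84 in siChst7, against 9.97 and 9.0 in siControl, and the groups overlapped. A second inside region was weak and called in 3 libraries. Comp, a thrombospondin of cartilage and tendon matrix, had no region inside the gene. A region 969 bp below its lower end, chr8:70371633-70372579, had folds of 6.76 and 10.1 in siChst7, against 8.25 and 7.60 in siControl, the siChst7 values lying on either side. Past the upper end, chr8:70383011-70383895, which lies in Crtc1, had 11.2 and 11.4 in siChst7, against 12.4 and 13.8 in siControl, both siChst7 values being lower. Comp counted as having an end peak with siControl alone because the peak edge came within 1 kb below the gene in siControl replicate 1 and above it in siControl replicate 2. Since all 4 libraries called both regions, that difference is one of peak edges.

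**Figure D3:**
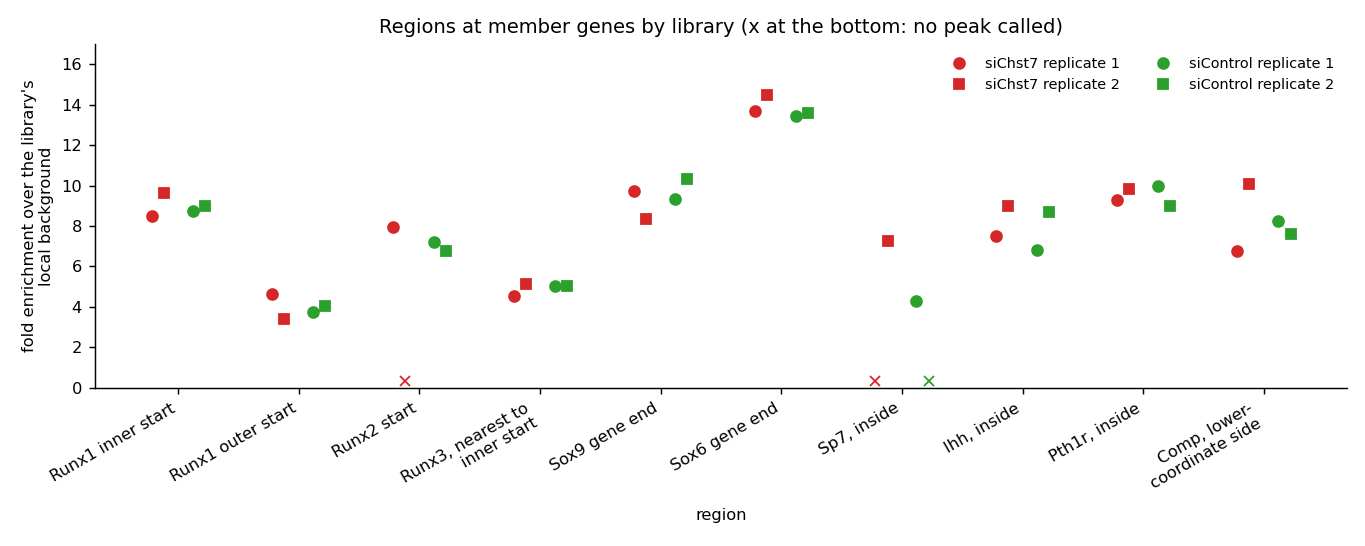
Fold enrichment of 10 regions at the member genes in each library, siChst7 to the left of siControl, with a cross at the bottom where no peak was called. The Sox6 region near the gene end is the highest of those plotted (13.5 to 14.5) and the outer Runx1 start the lowest among regions called in all 4 libraries (3.40 to 4.63).

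By gene ends, 3 of the 10 members (Sox6, Sox9 and Runx1) had an end peak in all 4 libraries, against 53.8% of all protein-coding genes. Sox5 and Runx2 had one in 3 libraries, Comp in 2, and Runx3, Sp7, Ihh and Pth1r in none. Of 21 partner genes, 12 had such a peak in all 4 libraries (57.1%), near that share, including Cbfb, the common partner subunit of RUNX proteins, the corepressors Tle1 and Tle3, and the hedgehog pathway genes Smo, Gli1, Gli2 and Gli3. Cbfb had folds of 10.7 and 11.7 in siChst7, against 11.3 and 11.0 in siControl. Msx1, a homeobox gene of limb and skull mesenchyme, had 14.6 and 16.6 in siChst7, against 15.6 and 15.3 in siControl. The siControl values lay within those of siChst7 at both genes. At Fgfr3 both siChst7 folds were lower, 9.60 and 10.1 against 12.6 and 12.4 in siControl. Sox8 was also lower, with 5.26 and 5.14 in siChst7, against 7.04 and 6.65 in siControl. At Smo both siChst7 folds were higher, 10.9 and 10.0365 against 9.84 and 10.036, the nearer pair almost equal. At the remaining partner genes with such a peak the groups overlapped. Dlx5, Msx2, Nkx3-2, Ptch1, Pthlh and Sox11 had none in any library.

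Of 15 cartilage genes 2 had an end peak in all 4 libraries, Col10a1 and Matn3, where the share over all protein-coding genes is 53.8%, and 11 had none in any library, among them Acan, which encodes aggrecan, Col9a1 and Prg4. Col2a1, the main collagen of cartilage, was called in siControl replicate 1 alone, with a fold of 3.42. Col10a1, the collagen of hypertrophic cartilage, had 12.9 and 9.14 in siChst7, against 9.60 and 8.18 in siControl, and the groups overlapped. Matn3 had 9.29 and 10.9 in siChst7, against 12.6 and 12.6 in siControl, both siChst7 values being lower. Of 10 bone genes 2 had an end peak in all 4 libraries, the phosphatase gene Alpl and Col1a1, which is also on the fibroblast list. Another 7, including Bglap, Ibsp and Dmp1, had none. Alpl had 8.06 and 6.22 in siChst7, against 8.53 and 8.52 in siControl. Col1a1 had 7.42 and 6.82 in siChst7, against 7.53 and 7.95 in siControl. Both siChst7 values were lower at these genes. For the list genes, partner genes included, folds alone were compared and no ranks are given. The median fold over all shared regions was also lower in both siChst7 libraries (9.18 and 8.96, against 9.44 and 9.59 in siControl). A gene whose ends have no peak may be open elsewhere, as both Runx3 and Ihh were.

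**Figure D4:**
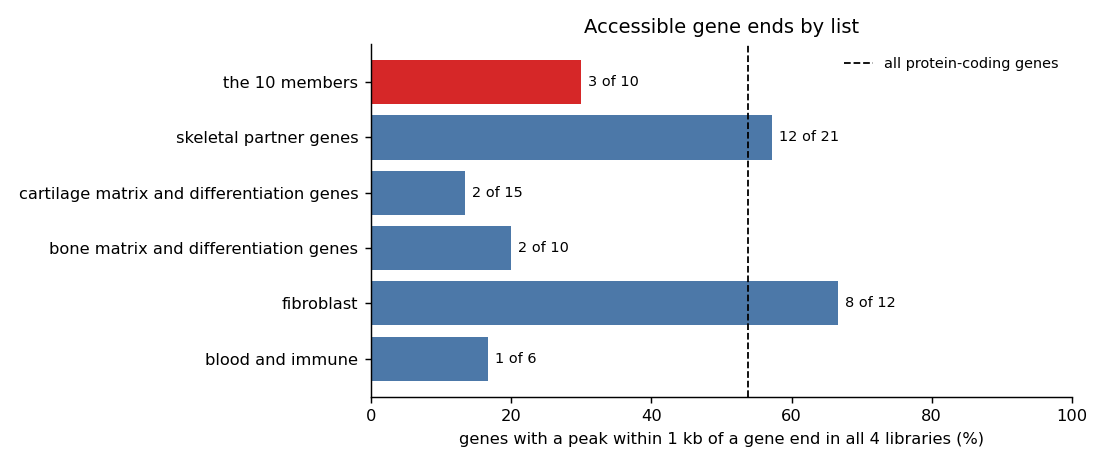
Share of the genes of each list with an end peak (no more than 1 kb from either gene end) in all 4 libraries, in percent, with the counts beside the bars and the share over all protein-coding genes (53.8%) as a dashed line. The members (3 of 10), cartilage genes (2 of 15) and bone genes (2 of 10) lie left of the line.

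The comparison of the 2 siRNAs asks which of these regions were called with one and not the other. All 4 libraries called 145 of the 233 regions (62.2%), against 62.0% of all regions. Regions called with siChst7 in both replicates and never with siControl, here siChst7-specific, numbered 2, or 0.858% of the 233, where the share over all regions is 1.24%. The reverse, siControl-specific, held for 7 regions, or 3.0%, against 2.84% over all regions. Both shares are near those of the genome. All 9 regions were weak, with folds between 2.86 and 8.05, and −log10 q between 2.73 and 14.2, whereas the median of regions called in all 4 libraries was 35.8 at these genes. Group-specific regions were weak over the genome too. Their median −log10 q was 6.68 for siChst7-specific and 7.67 for siControl-specific regions, against 6.82 and 4.81 at these genes.

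The siChst7-specific regions lay outside the member genes. One, chr15:102265585-102265931 in the Sp7 window, is nearer to the retinoic acid receptor gene Rarg (8063 bp away) and had folds of 5.04 and 8.05 in siChst7. The other, chr9:110718397-110718634, stood 3451 bp from Pth1r with 2.86 and 3.42 in siChst7. The siControl libraries had no call at either. Of the siControl-specific regions, 4 lay inside members. Runx2 had 2, chr17:44672371-44672655 with 5.83 and 6.04 in siControl and chr17:44529950-44530242 with 4.40 and 3.91 in siControl. Sox5 had chr6:143868164-143868648 with 4.49 and 4.10 in siControl, and Ihh chr1:74950109-74950459 with 3.46 and 3.34 in siControl, 1213 bp from the Ihh start. The remaining 3 were 2154 bp beyond Runx3 (chr4:135180144-135180581), 339 bp from Cdk5r2 in the Ihh window (chr1:74858071-74858327) and within Gdf1 and Cers1 in the Comp window (chr8:70323426-70323919). No siChst7 library had a call in these 7. Runx1, Sox6 and Sox9 had no group-specific region.

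The library with the shortest list also had the fewest calls at these genes. The members' regions called numbered 196 and 166 in siChst7, against 196 and 194 in siControl. They made up 0.267% and 0.255% of all regions called in the siChst7 libraries, against 0.269% and 0.260% in the siControl libraries. Of 29 regions called in exactly 3 libraries 21 were missing only in siChst7 replicate 2, the library with the shortest list, 72.4% against 51.0% over the genome. At Runx2, Runx1 and Runx3 all 13 such regions (6, 3 and 4) were missing in that library. Without it, a siChst7-specific region needs 1 siChst7 call in place of 2, so larger counts follow by construction. With siChst7 replicate 1 alone set against both siControl libraries, 12 regions were siChst7-specific and 9 siControl-specific, where the shares over all regions were 6.53% and 4.56%.

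Within the 145 shared regions, ranks were compared. The fold enrichment of each was turned into its percentile among the same 55924 regions called in all 4 libraries, separately in each library. Both siChst7 percentiles were above both siControl percentiles at 31 regions (21.4%, against 19.5% of all shared regions) and below at 18 (12.4%, against 18.4%). Inside the genes the counts were 16 higher and 5 lower of 58 (27.6% and 8.62%), and in the flanks 15 higher and 13 lower of 87. The median difference over the 145 regions was 0.00 percentile points, against 0.07 over all shared regions. Without siChst7 replicate 2 the excess of higher regions was gone, with 55 higher and 57 lower of 166 regions called in all remaining libraries. The shares over all shared regions were then 34.0% and 34.9%. Fewer libraries have to separate at that setting, so these counts are larger by construction. With 2 libraries a group, groups that do not overlap are common throughout the genome, as the shares of 19.5% and 18.4% show.

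The widest gap of each gene was 18.2 percentile points at Runx1, 17.9 at Runx2, 16.9 at Ihh, 15.9 at Sox5, 15.7 at Comp, 13.6 at Runx3, 11.9 at Sp7, 6.25 at Sox6, -4.02 at Sox9 and -14.1 at Pth1r. Over all shared regions the 5% and 95% quantiles of this gap were -14.39 and 13.99. These regions were picked for their gaps, so their sizes and directions are descriptions only. A gene with more shared regions also offers more gaps to pick from, with 24 at Runx1 against 2 at Sox9. Inside Runx1, chr16:92811739-92812417 had folds of 9.58 and 10.2 in siChst7, against 8.23 and 8.23 in siControl. Inside Runx2, chr17:44717841-44718946 had 12.3 and 10.9 in siChst7, against 11.5 and 8.21 in siControl, and the groups overlapped. Inside Sox5, chr6:144710713-144711328 had 13.5 and 10.3 in siChst7, against 10.2 and 10.2 in siControl, a gap that rested mostly on siChst7 replicate 1. The Runx1 and Sox5 regions were higher with siChst7 in both libraries. The Ihh and Comp regions belong by position to other genes. Near Cfap65, chr1:74901325-74901960 had 9.70 and 8.23 in siChst7, against 7.25 and 7.65 in siControl, and in Klhl26, chr8:70461481-70462263 had 9.22 and 9.54 in siChst7, against 7.63 and 8.40 in siControl. Both were higher with siChst7. Beside the cardiac myosin light chain gene Myl3 in the Pth1r window, chr9:110759175-110759842 had 7.90 and 8.64 in siChst7, against 10.4 and 10.2 in siControl, lower in both siChst7 libraries.

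In the whole Runx1 window 7 shared regions ranked higher and 5 lower with siChst7, of 24, where the shares over all shared regions were 19.5% and 18.4%. Of the 5 lower ones 3 lay among the 5 shared regions on the Clic6 side of the gene. Inside the chloride channel gene Clic6, chr16:92519769-92520427 had folds of 11.6 and 14.2 in siChst7, against 16.03 and 17.01 in siControl. A weaker region also in Clic6, chr16:92511671-92512192, had 5.78 and 4.08 in siChst7, against 7.49 and 6.87 in siControl, a gap of -17.9 points. Beyond Clic6, chr16:92544219-92544689 had 11.0 and 10.6 in siChst7, against 12.6 and 13.4 in siControl. All 3 had both siChst7 values below both siControl values, while the ranks overlapped at chr16:92565624-92566426, with 12.2 and 11.6 in siChst7, against 12.96 and 12.7 in siControl. Nearest to Runx1, chr16:92572426-92573929 had 11.1 and 10.2 in siChst7, against 10.1 and 9.44 in siControl, higher with siChst7. Apart from chr16:92519769-92520427, the strongest region of the window, these were picked out after their values were seen.

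**Figure D5:**
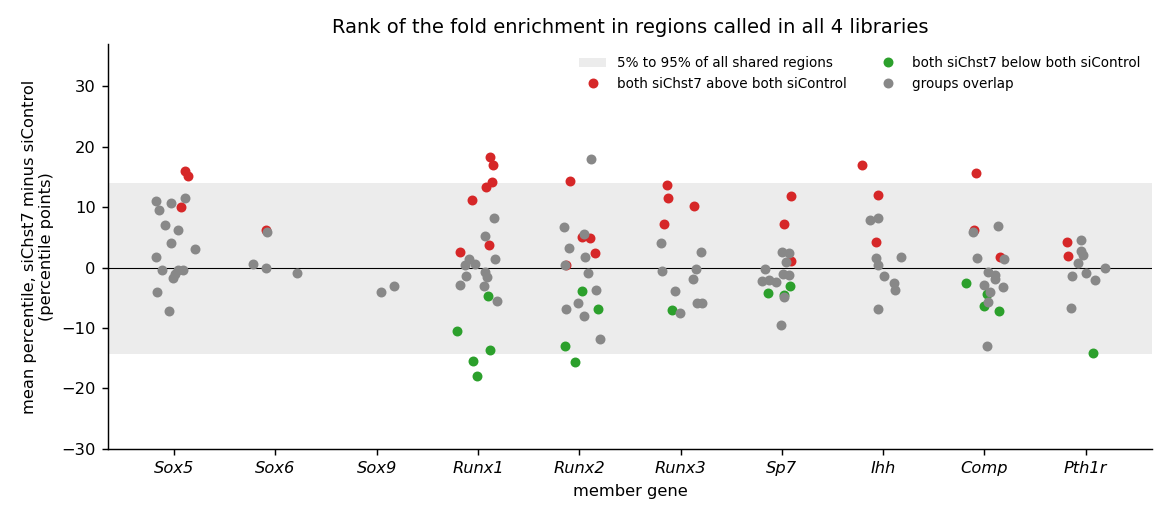
Mean percentile of the fold enrichment in siChst7 minus that in siControl (percentile points) for each region called in all 4 libraries, by gene, coloured by whether the groups overlap. The grey band holds the middle 90% of all shared regions (-14.39 to 13.99), and most points of every gene lie within it.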

How the data were processed

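Each library has its own deposited peak list. Peak names refer to a single alignment each, so replicates were not pooled. Per the submitters' processing notes, the build was mm10 and the tools were HOMER, bedtools, MACS3, SAMtools and Bowtie, with no version or role given. How duplicates, cut-site shifts and blacklisted regions were handled is not stated in these notes. The fold enrichment (a ratio), the −log10 p and −log10 q, and the score of about 10 times −log10 q were deposited by the authors for each peak. The summit offset they deposited was used for summit windows. Fold is relative to each library's own background, so it is compared here as values side by side and as ranks.

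Peaks on chromosomes 1 to 19, X and Y that share at least 1 bp were merged into regions (Python 3.11.15, pandas 2.3.3), and each library's value is that of its peak with the highest −log10 q. Merging and calling were tested on simulated peaks. Genes came from RefSeq (GRCm38.p6). That table has no strand or exons, so gene ends were used, with starts and strands from the RefSeq promoter table where listed. Exons and introns are not told apart.

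The members, lists and settings were chosen with earlier results of these data known. Named regions are those at gene ends or starts, the strongest and the widest gap per gene, and every group-specific region. Any other region was picked after its values were seen. The result of 1 marker list is not reported here. Alternatives were equal list length, a minimum −log10 q of 5, widths of at least 200 bp, summit windows of 200 bp, flanks of 50 and 5 kb, and leaving out each library.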

Additional observations from a re-analysis of the deposited data

How the results depend on the processing

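The 233 regions, the 145 called in all 4 libraries and the 31 and 18 ranked higher and lower stayed within 1.5 times their values under the 3 filters on peaks and with summit windows. siChst7-specific regions numbered 1 with a −log10 q of at least 5, with equal list length and with widths of at least 200 bp, and siControl-specific regions 4 with equal list length. Flanks of 50 kb gave 96 regions called in all 4 libraries, 1 siChst7-specific region and 11 ranked lower. Flanks of 5 kb gave 101 regions, 61 of them in all 4 libraries, 1 siChst7-specific, 16 ranked higher and 6 lower, as fewer regions were counted. Leaving out each library in turn gave 224 to 227 regions at these genes. Of them 5 to 12 were siChst7-specific and 9 to 29 siControl-specific. Over all regions of the genome those shares were 3.05% to 6.53% and 4.56% to 9.03%. Member regions ranked higher numbered 50 to 60 and those ranked lower 38 to 57. The shares over all shared regions of the genome were 34.0% to 37.5% and 33.2% to 34.9%. Calls then need 1 library fewer, so these counts are larger by construction. Without siChst7 replicate 2 the siChst7-specific regions (12) outnumbered the siControl-specific ones (9), and with either siControl library or siChst7 replicate 1 left out they did not. Without siChst7 replicate 2 regions ranked lower (57) also outnumbered those ranked higher (55). Without siChst7 replicate 1, 29 of 225 regions at these genes were siControl-specific, where the share over all regions was 8.6%. Members with an end peak in all libraries numbered 3 or 4 throughout. Of the 9 group-specific regions, those inside Runx2 (chr17:44672371-44672655), near Rarg and near Cdk5r2 were called the same way under all 4 changes to the peaks. No paired analysis was possible because the result comes from no test. The labels number the replicates 1 and 2 in both groups without saying whether libraries of 1 number were handled together. Depth is unknown, so a missing call does not show closed chromatin.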
